A study of Mus musculus with 7 samples.

Results

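The globin genes and the erythroid enzyme gene Alas2 were followed in bulk RNA sequencing of mouse cerebral cortex at postnatal day 7. The 6 genes are Hba-a1, Hba-a2, Hbb-bs, Hbb-bt, Hbb-y and Alas2, chosen by symbol from the 56941 rows of the deposited table. The P213L group, 3 cortices of mice with that variant of the X-linked RNA-binding protein gene Hnrnph2, was set against a group of 4 wild-type (WT) cortices of the same age. All 7 are labelled as fresh tissue with no treatment, and the labels name neither strain nor sex nor whether blood was flushed from the vessels. Nor do they tie each sample to an animal of its own, so the p-values speak of the spread among these 7 libraries, which may be technical.

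Hemoglobin is made of alpha and beta globin chains, each holding a heme group that binds oxygen. The genes of the alpha family lie side by side on chromosome 11 in the mouse and those of the beta family on chromosome 7, with embryonic and adult members that are used in turn during development. Red blood cells that have just left the bone marrow, spleen or liver still hold globin mRNA, and this RNA therefore reaches a tissue sample through its vessels. Low levels of globin mRNA have also been described in some neurons and glial cells, so a level in whole cortex does not name the cell it came from.

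The adult genes come in near-identical copies, which matters for every value below. The coding sequences of Hba-a1 and Hba-a2 (429 bases each in GENCODE vM21, mm10) differed at 1 base, C381T, counted from the first base of the start codon with the base of Hba-a1 given first. Those of Hbb-bs and Hbb-bt (444 bases each) also differed at 1 base, C417T, with the base of Hbb-bs first. The stretches around these bases are shown because they are the only places in the coding sequence where a read can tell the copies apart. The capital marks the base that differs, and the stretches lie in coding exons at chr11:32284323-32284363 and chr11:32297140-32297180 (plus strand) and at chr7:103826672-103826712 and chr7:103812663-103812703 (minus strand).
Hba-a1: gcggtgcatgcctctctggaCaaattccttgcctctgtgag
Hba-a2: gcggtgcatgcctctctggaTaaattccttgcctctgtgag
Hbb-bs: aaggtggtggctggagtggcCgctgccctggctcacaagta
Hbb-bt: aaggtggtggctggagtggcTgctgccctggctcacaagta

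Of all 100-base windows of the main Hba-a2 transcript, 74.5% also occur in that of Hba-a1, and 56.5% of the Hba-a1 windows occur in Hba-a2. For Hbb-bs and Hbb-bt the shares were 62.6% and 54.8%. A read from such a window fits both copies, and how the authors counted such reads is not stated in the labels, so the split between copies is uncertain and the sums of the copies are given as well. Hbb-y, the embryonic beta-like gene, shared no window of 50 bases with Hbb-bs, with 114 of 444 coding bases different.

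The 4 adult globin genes had their highest level in the same library and Alas2 had not, and the upstream sequences are shown beside this as a description. Whether the sequences bear on the levels in any library was not tested. Each line gives the 150 bases before the RefSeq start (GRCm38.p6, the assembly of mm10), read 5′ to 3′ on the strand of the gene. Capitals mark matches on either strand to the CACCC box, the CCAAT box, the TATAA box, its variant ATAAA and the GATA motif GATAA. In Hbb-bt the match to TATAA overlaps the match to ATAAA on the strand of the gene. In Alas2 the match to GATAA overlaps the match to ATAAA on the other strand. The windows are chr11:32283522-32283671 (plus) for Hba-a1, chr7:103827929-103828078 (minus) for Hbb-bs, chr7:103813924-103814073 (minus) for Hbb-bt, chr7:103853208-103853357 (minus) for Hbb-y and chrX:150547267-150547416 (plus) for Alas2.
Hba-a1: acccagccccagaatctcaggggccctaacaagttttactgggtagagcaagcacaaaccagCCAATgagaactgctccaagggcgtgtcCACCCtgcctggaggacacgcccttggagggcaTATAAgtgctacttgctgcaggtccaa
Hbb-bs: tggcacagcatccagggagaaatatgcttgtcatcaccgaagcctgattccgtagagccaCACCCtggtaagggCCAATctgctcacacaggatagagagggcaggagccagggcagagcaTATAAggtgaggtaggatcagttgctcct
Hbb-bt: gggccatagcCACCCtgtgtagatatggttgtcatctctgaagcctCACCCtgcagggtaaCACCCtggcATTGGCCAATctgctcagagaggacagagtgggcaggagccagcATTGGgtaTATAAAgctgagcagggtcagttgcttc
Hbb-y: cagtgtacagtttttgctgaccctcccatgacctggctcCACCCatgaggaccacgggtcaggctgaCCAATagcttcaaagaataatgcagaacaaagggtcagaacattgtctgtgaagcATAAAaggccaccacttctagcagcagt
Alas2: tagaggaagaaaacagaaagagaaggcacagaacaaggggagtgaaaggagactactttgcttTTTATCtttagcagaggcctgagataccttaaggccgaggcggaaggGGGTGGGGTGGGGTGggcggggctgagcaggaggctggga

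The window of Hba-a2 was the same sequence as that of Hba-a1 shifted by 3 bases, with 297 of 297 overlapping bases identical over the full 300-base entries, so it is not printed. CCAAT was found upstream of all 5 globin genes and not in the window of Alas2, CACCC in all 6 windows, and GATAA only in that of Alas2. Among the 32851 promoter entries of RefSeq, 24.5% held CCAAT in the same 150 bases, 37.4% CACCC, 14.2% TATAA, 24.1% ATAAA and 13.3% GATAA. Matches this short are a description of letters and not of bound sites.

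**Figure D1:**
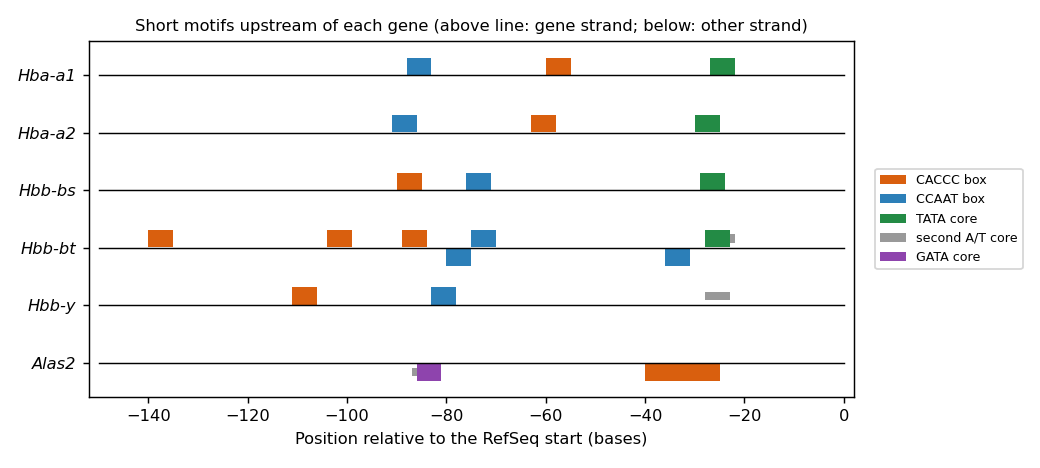
Positions of the 5 short motifs in the 150 bases before the RefSeq start of each gene, in bases relative to the start (x axis), 1 line per gene, with matches on the strand of the gene above the line and on the other strand below it. The second A/T core is ATAAA, drawn thinner. The adult alpha genes and Hbb-bs each hold 1 CCAAT, 1 CACCC and 1 TATAA, and Alas2 holds the GATAA match, on the other strand.

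Levels are given in transcripts per 1000000 (TPM), a level per transcript length in which every library has an equal total. Multiplying by GENCODE vM21 gene lengths turned the values of these genes into multiples of 0.5 counted units, in libraries of 57.2 to 79.4 M units (M, 1000000). The 6 genes together held 0.0460 to 0.0600% of all TPM in P213L and 0.0415 to 0.0903% in WT. Hnrnph2 itself stood at 82.0 ± 5.39 TPM in P213L (SD, n = 3) and 87.0 ± 5.66 TPM in WT (SD, n = 4), and these values do not show the variant, which changes the protein. WT replicate 3 stood apart from the rest, with correlations to the other libraries of 0.943 to 0.949 across the tested genes and a TPM-weighted mean transcript length of 3251 bases, against 3975 to 4026 bases in the other 6. The cortical marker Neurod6, a transcription factor of excitatory neurons, stood at 183 to 228 TPM in P213L and 168 to 219.5 TPM in WT, so the labelled tissue had this marker in every library.

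Hbb-bs, which encodes an adult beta chain, was the most abundant of the 6. It stood at 222, 272 and 226 TPM in P213L replicates 1, 2 and 3, against 212, 233, 434 and 202 TPM in WT replicates 1, 2, 3 and 4. The P213L values lay inside the range of the WT values, and WT replicate 3 was far above all other libraries. Its levels rested on 2692 to 6066 counted units per library. P213L over WT gave a log2 fold change of -0.10 ± 0.26 (SE; limma, adjusted p = 0.906), and the exact permutation p was 0.943 (two-sided, with 35 arrangements of the labels). Without WT replicate 3 it came to 0.15 ± 0.09 (SE; limma adjusted p = 0.642).

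Hba-a1, which encodes the alpha chain, stood at 169, 228 and 185 TPM in P213L, against 146, 163, 299 and 144 TPM in WT. All 3 P213L libraries lay above WT replicates 1, 2 and 4, and WT replicate 3 lay above all of them. The group means were 194 ± 30.3 TPM in P213L (SD, n = 3) and 188 ± 74.7 TPM in WT (SD, n = 4), with a log2 fold change of 0.10 ± 0.26 (SE; limma, adjusted p = 0.903) and an exact permutation p of 0.971. Without WT replicate 3 the WT mean was 151 ± 10.5 TPM and the log2 fold change 0.35 ± 0.11 (SE; unadjusted p = 0.0157, adjusted p = 0.516 in limma). In that set of 6 libraries 7.33% of all tested genes had every P213L value above every WT value, and 8.69% had an unadjusted p under 0.05. Limma with sample weights gave WT replicate 3 a weight of 0.0431 and called Hba-a1 (log2 fold change 0.35 ± 0.08, SE; adjusted p = 0.0183), in a fit that called 3981 of the 17582 genes (22.6%), 13.3% of all tested genes in the direction of Hba-a1.

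The second alpha gene, Hba-a2, stood at 37.4, 52.9 and 48.1 TPM in P213L, against 63.1, 56.9, 99.5 and 35.8 TPM in WT. The groups overlapped, with WT replicate 4 lowest and WT replicate 3 highest. It had a log2 fold change of -0.39 ± 0.31 (SE; limma, adjusted p = 0.827) and an exact permutation p of 0.371. Hbb-bt, the second adult beta gene, stood at 25.3, 38.8 and 34.7 TPM in P213L, against 38.1, 33.6, 65.4 and 28.9 TPM in WT. P213L replicate 1 was the lowest library and WT replicate 3 the highest. It had a log2 fold change of -0.28 ± 0.28 (SE; limma, adjusted p = 0.827) and an exact permutation p of 0.600.

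With the copies added before the fit, alpha globin (Hba-a1 plus Hba-a2) had a log2 fold change of -0.0086 ± 0.27 (SE; limma adjusted p = 0.993), with a 95% interval of -0.63 to 0.61. Adult beta globin (Hbb-bs plus Hbb-bt) had -0.12 ± 0.26 (SE; limma adjusted p = 0.886), with an interval of -0.73 to 0.48. Without WT replicate 3 the difference of the means, P213L minus WT, turned to 37.2 TPM for alpha globin (-11.8 TPM with all 7 libraries), 23.9 TPM for adult beta globin (-38.7 TPM) and 62.9 TPM for the sum of the 6 genes (-48.6 TPM), and for alpha globin it was also positive without P213L replicate 1, at 5.02 TPM. With all 7 libraries both intervals hold differences in either direction, and differences within them were not detectable with these libraries. In bulk tissue, fewer cells of a type and less RNA per cell cannot be told apart, and this holds for blood left in the sample as well.

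Hbb-y, which encodes the beta-like chain of embryonic red cells, was listed at 0 in all 3 P213L libraries, against 0.0834, 0.254, 0.347 and 0 TPM in WT. The WT values correspond to 1, 3, 4 and 0 counted units. A count of 0 allows up to 3 units, which would be 0.243, 0.254 and 0.227 TPM in the P213L libraries, so no difference was detectable at this depth, and counting error is all that this limit covers. Hbb-y had a mean of 0.0978 TPM and did not pass the filter of 1 TPM, so it was not in the limma fit, and its exact permutation p was 0.257. The other embryonic globins, Hba-x of the alpha family and Hbb-bh0, Hbb-bh1 and Hbb-bh2 of the beta family, were listed at 0 in all 7 libraries. The theta-like genes Hbq1a and Hbq1b, whose function is not established, stood at 4.88 to 7.01 and 4.02 to 6.70 TPM over all libraries.

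Alas2 encodes the erythroid form of aminolevulinate synthase, the enzyme of the first step of heme synthesis, and was the gene of the 6 whose groups did not overlap in the full set. It stood at 6.54, 8.27 and 6.97 TPM in P213L, against 5.86, 5.87, 4.50 and 4.49 TPM in WT. All 3 P213L libraries lay above all 4 WT libraries, and WT replicate 3, the highest library for the adult globins, was here among the lowest. The means were 7.26 ± 0.902 TPM in P213L (SD, n = 3) and 5.18 ± 0.792 TPM in WT (SD, n = 4). The values rested on 306, 370.5 and 350.0 counted units in P213L and 267, 263, 197 and 187 in WT.

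The log2 fold change of Alas2 was 0.45 ± 0.16 (SE, 95% interval 0.09 to 0.82) with an unadjusted p of 0.0206 and an adjusted p of 0.827 in limma, so it did not pass. The exact permutation p was 0.0286, the smallest that 3 against 4 libraries can give. Of all tested genes, 5.94% had every P213L value above every WT value and 2.36% were higher at an unadjusted p under 0.05 (3.74% in either direction), while 0% passed an adjusted p of 0.05. Of the 5 tested members, Alas2 was the 1 that met either of these criteria. The direction held in 21 of 21 other settings, with log2 fold changes of 0.35 to 0.52. The unadjusted p in limma was 0.0711 with the replicate number as a block, 0.0905 without P213L replicate 2 and 0.0571 without WT replicate 4. Limma with sample weights called it (0.52 ± 0.10, SE; adjusted p = 0.0102) among the 22.6% of genes that this fit called. Alas2 lies on chromosome X (150547375 to 150570638, plus strand, mm10), 15.9 Mb (1000000 bases) from the end of Hnrnph2, and 29 of 561 tested genes of that chromosome (5.17%) had every P213L value above every WT value.

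**Figure D2:**
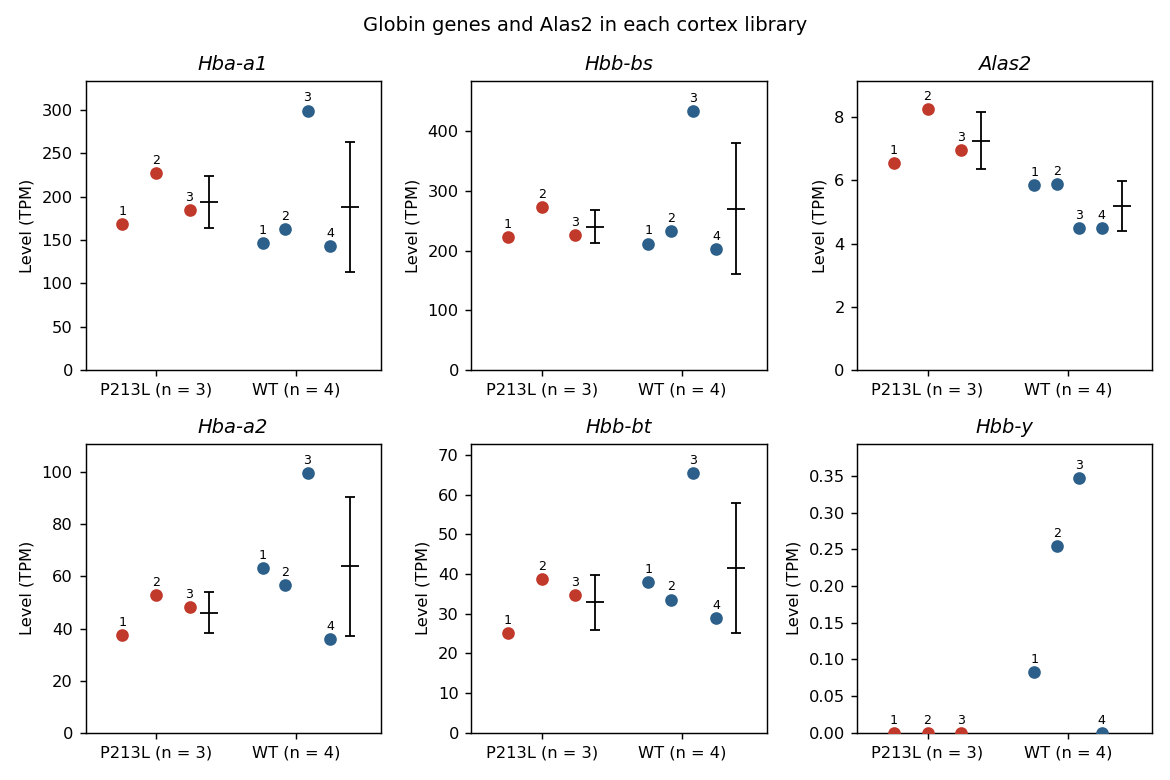
TPM of each of the 6 genes (y axis, linear, from 0) in the 3 P213L and 4 WT libraries, 1 point per library with its replicate number, and the mean ± SD of the group beside the points except for Hbb-y. WT replicate 3 is highest for the 4 adult globins, and the 3 P213L points of Alas2, at 6.54 to 8.27 TPM, lie above the 4 WT points.

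**Figure D3:**
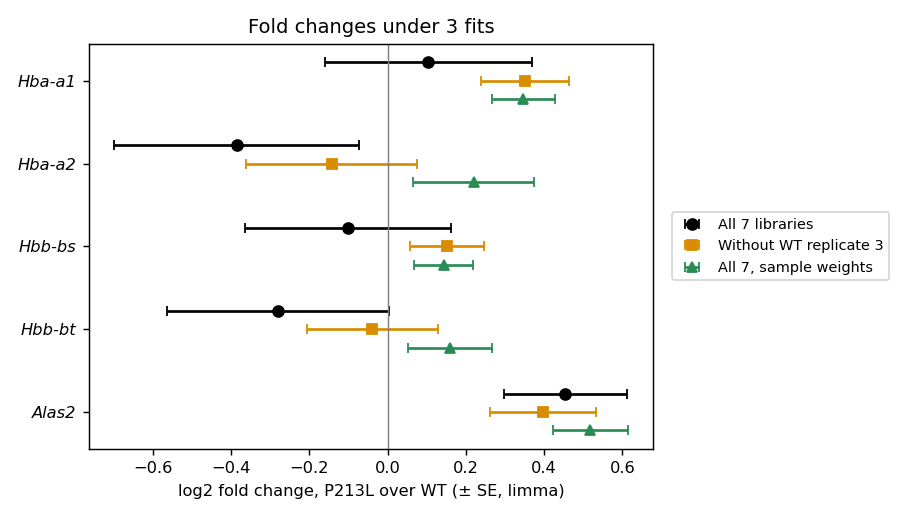
log2 fold change of P213L over WT (x axis, ± SE, limma) for the 5 tested genes with all 7 libraries, without WT replicate 3, and with sample weights. The values of Hbb-bs change sign between -0.10 and 0.15, while those of Alas2 stay between 0.40 and 0.52.

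The order of the levels was Hbb-bs, Hba-a1, Hba-a2, Hbb-bt, Alas2 and Hbb-y in all 7 libraries, as TPM, which is per length. Within a library Hbb-bs was 1.20 to 1.45 times higher than Hba-a1 and Hba-a2 was 1.24 to 1.69 times higher than Hbb-bt, and for both pairs the ranges over the 7 libraries overlapped. Hbb-bs ranked 646 and Alas2 11759 among the 17582 tested genes by mean TPM.

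The ratio of alpha to beta globin and the shares of the copies do not depend on how much globin RNA a library held, whereas Alas2 per globin does. All are given as a description without a test. Alpha globin was 0.834, 0.901 and 0.896 of adult beta globin in P213L, against 0.837, 0.826, 0.799 and 0.777 in WT. P213L replicate 1 lay inside the WT range and the other P213L libraries above it, and WT replicate 3 was not set apart by this ratio. Hba-a2 made up 18.1, 18.8 and 20.6% of alpha globin TPM in P213L, against 30.2, 25.9, 24.9 and 19.96% in WT. WT replicate 4 lay within the P213L range and the other 3 WT libraries above it, and the share rests on reads that the copies may have been given unequally. Hbb-bt made up 10.2 to 13.3% of adult beta globin in P213L and 12.5 to 15.2% in WT.

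Alas2 and the globins differed most in their relation in WT replicate 3. Alas2 per 100 globin TPM was 1.44, 1.40 and 1.41 in P213L, against 1.28, 1.21, 0.501 and 1.09 in WT. The P213L libraries lay close together and above all WT libraries, and the difference of the means, 0.397 with all 7 libraries, was 0.224 without WT replicate 3. Alas1, the form of the enzyme that all tissues use, stood at 28.7 to 30.8 TPM in P213L and 27.9 to 30.9 TPM in WT. Alas2 was therefore 17.9, 22.4 and 18.4% of the summed TPM of both forms in P213L, against 15.9, 17.4, 13.01 and 13.1% in WT. Both measures contain the Alas2 level, so their separation of the groups is not independent of it.

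**Figure D4:**
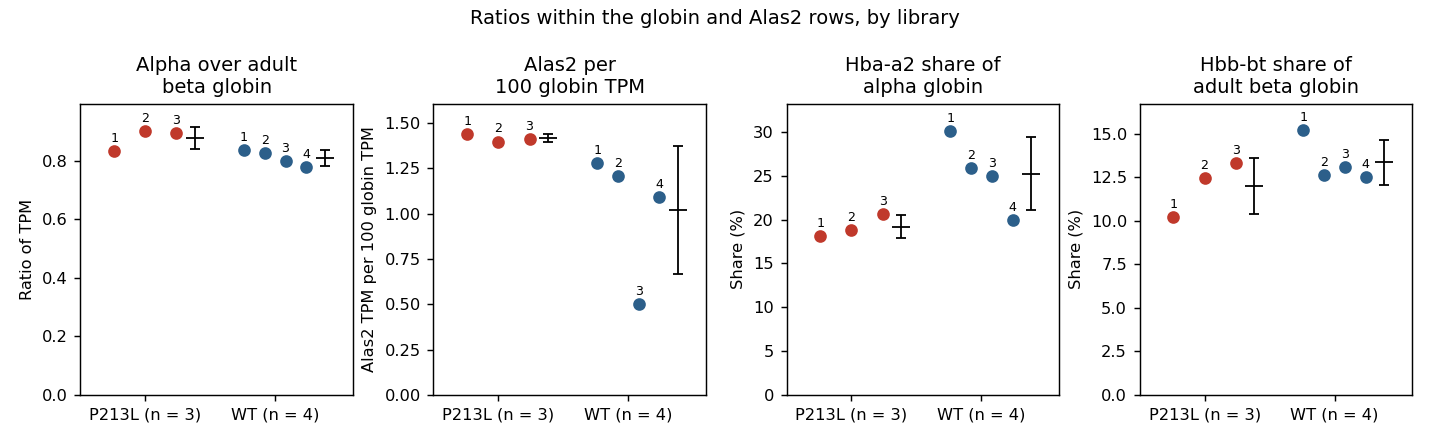
Ratios and shares within each library (y axes from 0), 1 point per library with its replicate number, and mean ± SD beside the points. Alas2 per 100 globin TPM is 1.40 to 1.44 in P213L and 0.501 to 1.28 in WT, and the share of Hba-a2 is 18.1 to 20.6% in P213L and 19.96 to 30.2% in WT.

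WT replicate 3 was set against the other 3 WT libraries gene by gene. On the log2 scale it was higher by 0.99 for Hba-a1, 0.97 for Hba-a2, 1.01 for Hbb-bs and 0.96 for Hbb-bt, and Alas2 had -0.23. The globin genes are short, and 921 other tested genes of 500 to 1000 bases had a median difference of 0.16, with 93.2 to 94.4% of them below the 4 globins. Alas2 is longer, and 2410 genes of 2000 to 3000 bases had a median of 0.0022, with 31.3% of them below it. Over all tested genes the median was -0.30. With a trend on transcript length removed from each library, Hba-a1 had a log2 fold change of 0.14, Hbb-bs of -0.07 and Alas2 of 0.43 between P213L and WT, an alternative chosen after seeing the data. The part of length, RNA quality or blood in the values of WT replicate 3 was not tested.

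Defining genes of red cell precursors were low. Gata1, the master factor of the lineage, stood at 0.0842, 0.0880 and 0.128 TPM in P213L, against 0.0433, 0.0440, 0.0451 and 0.0473 TPM in WT. Each value rested on 2 to 6.5 counted units. Slc4a1, the anion exchanger of the red cell membrane, stood at 0.315, 0.455 and 0.372 TPM in P213L, against 0.248, 0.252, 0.247 and 0.159 TPM in WT (30, 41.5 and 38 units against 23, 23, 22 and 13.5). The P213L libraries lay above all WT libraries for both genes, which are too low for the test, and 4.23% of the 13962 rows with means of 0.05 to 1 TPM did the same. Klf1, the factor that switches on adult beta globin, overlapped between the groups, at 0.315 to 0.671 TPM in P213L and 0.226 to 0.654 TPM in WT.

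The wider lists of heme and erythroid genes held no member past an adjusted p of 0.05 in limma. Of the 15 tested genes of heme synthesis and its iron supply, 9 had positive and 6 negative fold changes, with a median log2 fold change of 0.01 against 0.07 over all tested genes. Abcb10, a transporter of the inner mitochondrial membrane in heme-making cells, stood at 29.7 to 30.2 TPM in P213L and 16.5 to 28.4 TPM in WT, where WT replicate 3 was lowest. The medians were 0.19 for 10 tested red cell membrane genes, 0.15 for 7 tested regulators (6 transcription factor genes and the Epo receptor gene), -0.03 for 15 late erythroid genes and -0.03 for 14 genes of heme and iron handling. Without WT replicate 3 the median of the membrane genes was -0.055 and that of the regulators 0.037, against -0.0016 over all tested genes. Of the 59 different genes tested in these lists, 1 had an unadjusted p under 0.05 (1.69%, against 3.74% of all tested genes). It was the glutamine transporter gene Slc38a5, which stood at 30.5, 29.4 and 32.1 TPM in P213L, against 27.1, 21.0, 20.6 and 24.1 TPM in WT (log2 fold change 0.40 ± 0.13, SE; adjusted p = 0.827 in limma). Many genes of these lists are also brain genes, and the medians do not stand for red cells alone.

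Most markers of white blood cells and platelets lay under the filter of 1 TPM, with 2 of 15 neutrophil, 4 of 15 lymphocyte and 4 of 12 platelet markers tested. Among the neutrophil markers the granule protein genes S100a8 and S100a9 stood at no more than 0.475 and 1.47 TPM, both highest in WT replicate 3, and the protease gene Prtn3 stood at 7.85 to 8.60 TPM in P213L and 6.07 to 10.2 TPM in WT. Mmp9, the other tested neutrophil marker, stood at 2.92, 5.93 and 3.80 TPM in P213L, against 3.35, 3.03, 2.80 and 2.66 TPM in WT. Its log2 fold change was 0.40 ± 0.22 (SE, adjusted p = 0.827 in limma). The T cell receptor complex genes Cd3d, Cd3e and Cd3g were at 0.110 TPM or less. Trbc2, a constant region of the T cell receptor, stood much higher, at 40.2 to 46.5 TPM in P213L and 44.7 to 75.3 TPM in WT, with WT replicate 3 highest (log2 fold change -0.41 ± 0.17, SE; unadjusted p = 0.0482, adjusted p = 0.827 in limma). The immunoglobulin gene Ighm stood at 8.81 to 9.69 TPM in P213L and 9.17 to 11.7 TPM in WT. The platelet chemokine gene Pf4, which brain macrophages also express, stood at 8.77 to 9.67 TPM in P213L and 6.33 to 11.9 TPM in WT, again highest in WT replicate 3. The summed level of the 12 platelet markers was 16.1 to 16.6 TPM in P213L and 12.9 to 20.8 TPM in WT. WT replicate 3 was the highest library for 7 of 15 neutrophil, 3 of 15 lymphocyte and 5 of 12 platelet markers. All other markers of these lists were highest in another library or at 0 throughout. Endothelial markers, 17 in number, summed to 613 to 633 TPM in P213L and 618 to 736 TPM in WT, with WT replicate 3 at the top of that range, where the tight junction gene Cldn5 alone stood at 332 TPM. Of the 17, 9 were lowest and 4 highest of all libraries in WT replicate 3. Meningeal markers, of the vessel-bearing membranes around the brain, were also set beside the groups, and 8 of 9 had positive fold changes (2 at an unadjusted p under 0.05, 0 past adjustment in limma; 2.36% of all tested genes were higher at that p), with a median log2 fold change of 0.35, against 0.07 over all tested genes, and a summed level of 169 to 236 TPM in P213L and 98.6 to 176 TPM in WT. WT replicate 3 was the lowest library of that sum, and P213L replicate 2 was the highest. WT replicate 3 was also the lowest library for the summed markers of the vessel wall, cortical neurons, astrocytes and choroid plexus. Choroid plexus markers summed to 44.1 to 47.7 TPM in P213L and 41.1 to 1314 TPM in WT, with WT replicate 2 at the top. Of 9 microglial markers 8 had negative fold changes, with a median log2 fold change of -0.16, against 0.07 over all tested genes. In limma 3 of them had an unadjusted p under 0.05 and 0 passed adjustment, where 3.74% of all tested genes had such a p in either direction. The 9 markers summed to 255 to 261 TPM in P213L and 266 to 304 TPM in WT. The part of these tissues in the levels of the globins and Alas2 was not tested.

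The genes whose pattern over the 7 libraries was most like the mean of the 5 tested members were found by Pearson's r on log2 values, as a description. Of the 10 most alike, 5 were gene models and are not named, and the other 5 were Pdgfa (r = 0.97), Serf1 (0.97), Snx7 (0.97), Hdgf (0.96) and Wrnip1 (0.96). Pdgfa, a growth factor gene, stood at 48.5, 54.3 and 52.8 TPM in P213L, against 50.8, 52.6, 74.7 and 42.2 TPM in WT, so that WT replicate 3 was highest and WT replicate 4 lowest. Without WT replicate 3 the correlations were 0.89 to 0.95. In all, 81 of 17577 genes (0.461%) had r over 0.9.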

How the data were processed

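Per the labels' protocols, TRIzol RNA of fresh cortex went into stranded mRNA libraries. The submitters' processing notes name HISAT2, HTSeq and mm10. Versions, annotation and the treatment of reads that fit several genes are not stated there. Per the file headers, the authors deposited 1 TPM column per sample, and each sums to 1000000.

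Symbols joined to GENCODE vM21 exon-union lengths for 85.9% of rows. In each library the most frequent low product of TPM and length was taken as 1 counted unit. Between 95.1 and 96.1% of low values (at most 10 units) were then within 0.05 of a multiple of 0.5. These are estimates, and no count test was run.

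Groups follow the sample titles. The 17582 genes averaging 1 TPM or more were tested on log2(TPM + 0.5) with limma 3.58.1 in R 4.3.3 (mean-variance trend, two-sided, Benjamini-Hochberg over all tested genes). The members and lists were chosen with earlier results of these data known. Named were the members, list genes with the smallest p or highest level, and the 10 genes most like the members. The erythroid markers Gata1, Klf1 and Slc4a1 are shown as marker genes. Some list genes are not reported here. Other genes shown beyond this rule were chosen after their values were seen. Alternatives were other pseudocounts, filters, scalings and fits, the replicate number as a block, and each library left out. Figures were drawn with matplotlib 3.10.9.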

Additional observations from a re-analysis of the deposited data

Results flagged for a closer look

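For the globin genes and Alas2, 13 measures were checked for a WT library that stood far from the other 3, and chance alone flags about 1 in 20 groups of 4. In 3 of the 13, WT replicate 3 was far above the rest. Hba-a1 stood at 8.23 on the log2(TPM + 0.5) scale there, against 7.17 to 7.35 in the other WT libraries. Adult beta globin (Hbb-bs plus Hbb-bt) stood at 499 TPM, against 231 to 266 TPM. The sum of the 6 genes was 903 TPM, against 415 to 492 TPM. These measures share their reads and are not independent, and Alas2 in the same library was not far from the rest.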

How the results depend on the processing

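The 5 tested genes had 101 values under other settings, of which 92 kept direction and call. With sample weights Hba-a1 (0.35) and Alas2 (0.52) passed, and Hba-a2, Hbb-bs and Hbb-bt turned to 0.22, 0.14 and 0.16. In that fit 3981 genes passed, 22.6% of all tested genes, with 6969 at an unadjusted p under 0.05. Of the 59 tested genes of the heme, erythroid and iron lists, 15 passed in it. With single libraries left out, log2 fold changes ran from -0.017 to 0.35 for Hba-a1 (below 0 without P213L replicate 2 or WT replicate 4), from -0.63 to -0.14 for Hba-a2, from -0.22 to 0.15 for Hbb-bs (above 0 without WT replicate 3), from -0.43 to -0.039 for Hbb-bt and from 0.36 to 0.52 for Alas2. Genes at an unadjusted p under 0.05 numbered 657, and 266 to 1574 with a library left out, 1836 with no filter and 361 with a mean of at least 5 TPM.

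The replicate block, in which WT replicate 4 stands alone and adds nothing to the contrast, gave Hba-a1 -0.00058 and Alas2 0.39 (limma adjusted p = 0.759), with 0 genes past adjustment and 500 at an unadjusted p under 0.05. Deviations of same-numbered samples correlated at 0.13, 0.17 and -0.10, against -0.24 to 0.12 for samples with different numbers. These values do not settle whether samples with the same number belong together, and the sample titles do not say. The median of the heme synthesis list was -0.074 after median-of-ratios scaling, -0.040 after quantile normalization and -0.079 after removal of the length trend. That of late erythroid genes was -0.12 after median-of-ratios scaling, 0.048 with sample weights and -0.089 with the length trend removed, and that of heme and iron handling was -0.12 and -0.079 with median-of-ratios scaling and with the length trend removed. The median over all tested genes was 0.074 in the main fit, -0.0083 after median-of-ratios scaling and -0.0073 after quantile normalization. With the length trend removed it was -0.0028, and with sample weights -0.0007. The list medians are to be read beside these values. The causes were not tested.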
